A study of Mus musculus with 3 samples.

Results

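Of the 55681 probes on the array that were not controls, 16181 (29.1%) were not named after a transcript but after a stretch of the mouse genome, given in the scanner files as a chromosome, a start, an end and the letter F or R. These interval probes were selected by that form of name alone, and 13 probes with a chromosome name but no strand letter were left out. They addressed 3540 intervals on 20 chromosomes, with 8171 probes on the F strand and 8010 on the R strand. They were measured in NIH3T3 cells, an established mouse fibroblast line, on 1 one-colour Agilent array for each of 3 conditions. The cells had been kept for 24 h without compound (None), with 20 µM AR7, or with 20 µM BMS614. AR7 binds the retinoic acid receptor alpha (RARα) and activates chaperone-mediated autophagy, the lysosomal degradation of single proteins that carry a targeting motif. BMS614 is an antagonist of RARα. The labels name no other genotype, allele or agent in any of the groups, and all 3 arrays lay on 1 slide.

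Much of the mammalian genome outside protein-coding genes is transcribed, and part of this output is long intergenic noncoding RNA, which is transcribed by RNA polymerase II and is often spliced and polyadenylated like messenger RNA. Such RNAs are on the whole less abundant and more restricted to particular cell types than messenger RNAs, and many were first recognised as stretches of chromatin that carry marks of active promoters and transcribed gene bodies. Where only the stretch is known, and not the exons or the strand, arrays carry several probes spread over it and often probes for both strands. Most such RNAs have no known function.

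Interval length ran from 62 to 7128487 bp, with a median of 7315.5 bp. Both strands carried probes in 1067 intervals, the F strand alone in 1251 and the R strand alone in 1222. Of the 4607 interval strands, 1809 had 3 probes, 973 had 5, 690 had 1, 535 had 2 and 147 had 10, the highest number. Each interval probe was a single spot on each array. Coordinates are those of the mm9 build named in the scanner files. No mm9 annotation was used here, so the genes that lie in or beside an interval, and whether an interval is free of genes, were not checked. The place of a probe within its interval, and whether the strand letter is that of the RNA or that of the probe, is not given in the sources used here. Many intervals overlapped one another, and joining overlaps left 2223 separate stretches, of which 1439 held a single interval.

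Signals are given on a log2 scale after background correction and quantile normalization over the 3 arrays. All differences between conditions are differences between 1 array and 1 other array, so that no replicates stand behind any of them and no test was made. The only error available is that of the spots. For 173 probes printed 10 times on each array, the SD of the difference between AR7 and None was 0.38 at a mean log2 signal under 6, 0.098 from 8 to 9 and 0.055 at 12 and over. For BMS614 against None the same SD was 0.32, 0.11 and 0.049. This error leaves out culture, labelling and hybridization. The 75th percentile of the raw spot intensity was 692 for None, 780.5 for AR7 and 909 for BMS614. All 10 fibroblast markers looked up were well above background on all 3 arrays, whereas 4 of the 6 epithelial markers (Cldn4, Epcam, Krt18 and Krt19) were not well above background on any. Of 5 leukocyte and 5 endothelial markers with a probe, 3 each were detected on all 3 arrays.

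Fewer interval probes than messenger RNA probes were detected. A probe was called detected when the scanner software marked its spot as well above background. On the None array 41.1% of interval probes were detected, against 66.9% of the 26536 probes that carry an NM_ accession, the RefSeq prefix of messenger RNAs. With AR7 the shares were 49.4% and 71.1%, and with BMS614 they were 50.1% and 71.6%. The 1549 probes with an NR_ or XR_ accession, the prefixes of RefSeq noncoding RNAs, lay between them at 46.4%, 53.8% and 53.3%. On all 3 arrays 6446 interval probes (39.8%) were detected, and 7485 (46.3%) were detected on none. For NM_ probes these shares were 66.1% and 26.4%.

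Both treated arrays showed more interval probes above background than the None array. The NM_ probes and the NR_ and XR_ probes showed the same order against None. Both treated arrays were also brighter than None before normalization, and the part of this in the result was not tested. The probes detected with AR7 and with BMS614 but not in None numbered 1037 (6.41%) among interval probes, 886 (3.34%) among NM_ probes and 2530 (4.54%) among all probes. Their median signal among interval probes was 4.66, close to the lowest signal that the scanner software marked as well above background on the None array, 4.46. Detection in None alone was seen for 88 interval probes (0.544%), against 0.339% of NM_ probes and 0.427% of all probes.

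Signals of interval probes, detected or not, lay mostly at the low end. Over all probes of a class, the median of the mean log2 signal of the 3 arrays was 4.29 for interval probes and 7.43 for NM_ probes, and the upper quartiles were 6.26 and 10.85. Among probes detected on all 3 arrays the medians were 6.89 and 9.82. A mean log2 signal of at least 8, where spot error is small, was reached by 2069 interval probes (12.8%) and by 46.2% of NM_ probes. A signal of at least 12 was reached by 312 interval probes (1.93%) and by 16.3% of NM_ probes. These medians stand side by side as distributions, since probes differ in how well they bind and a single probe's level cannot be set against another's.

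**Figure D1:**
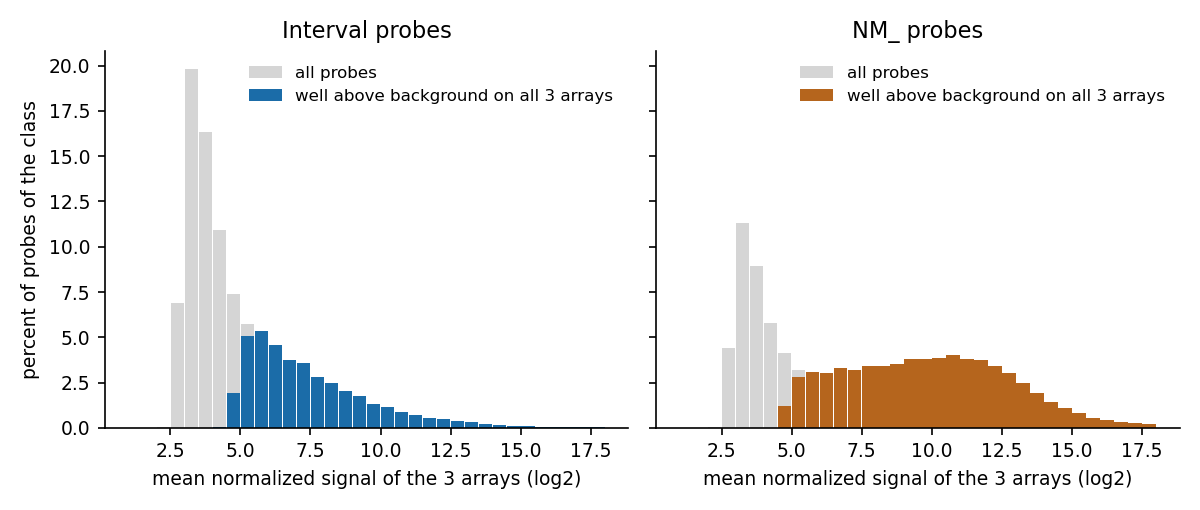
Percent of interval probes (left) and of NM_ probes (right) by mean normalized log2 signal of the 3 arrays, in bins of 0.5. Grey bars are all probes of the class and coloured bars those well above background on all 3 arrays; most interval probes lie in the undetected peak at the low end, and 12.8% of them reach a signal of 8, against 46.2% of NM_ probes.

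Detection differed between chromosomes and with interval length. By chromosome, the share of interval probes detected on all 3 arrays ran from 32.3% on chromosome 9 to 48.5% on chromosome 17. When the probes were split into 5 equal groups by the length of their interval, 34.7% were detected in the shortest group (62 to 2342 bp) and 40.1%, 41.6%, 41.4% and 41.4% in the others. The shortest intervals thus had the lowest share, and no further rise with length was seen above 9537 bp.

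The probes of one interval strand were often not detected together. Of the 1809 interval strands with 3 probes, 615 had none detected on all 3 arrays, 607 had 1, 325 had 2 and 262 (14.5%) had all of them. Among 584 NM_ accessions with 3 probes, all were detected for 341 (58.4%) and none for 61. A mixed result was thus the outcome for most interval strands with at least 1 detected probe, and a full set was the outcome for most NM_ accessions. The same held for strands with 2 probes, where both were detected on 130 of 535 interval strands and for 2545 of 4324 NM_ accessions. Of the 973 strands with 5 probes, 80 had all of them detected and 178 had none.

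**Figure D2:**
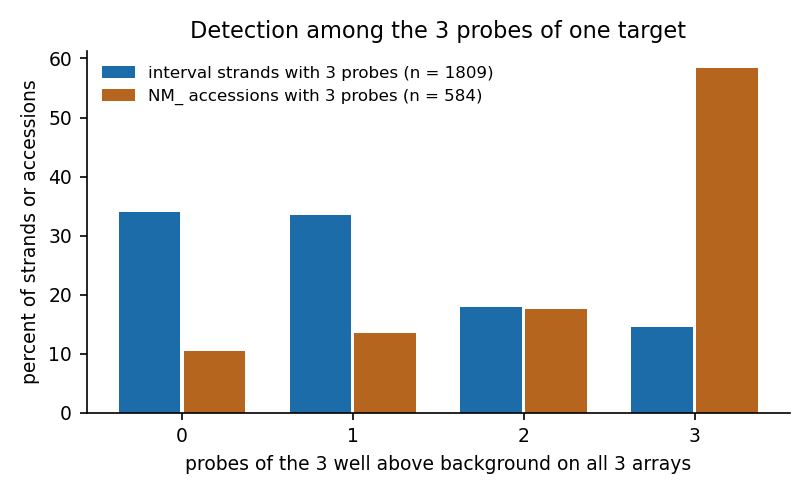
Percent of interval strands (n = 1809) and of NM_ accessions (n = 584) that have 3 probes, by how many of these probes were well above background on all 3 arrays. All 3 probes were detected on 14.5% of the interval strands and for 58.4% of the accessions.

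In most intervals with probes on both strands, at most 1 strand was detected. A strand was counted as detected when at least 50% of its probes were well above background on all 3 arrays. Of the 1067 intervals, 212 (19.9%) had both strands detected, 209 the F strand alone, 239 the R strand alone and 407 (38.1%) neither. With the scanner software's weaker flag, a signal positive and significantly above background, 672 had both strands detected. Strand-specific transcription read from these counts therefore depends on the flag. Full separation was rare. Among 525 intervals with at least 5 probes on each strand, 2 had every probe of one strand and no probe of the other detected on all 3 arrays. They were chr15:68161768-68193518, with 5 of 5 probes on the R strand, and chrX:165792277-165807952, with 5 of 5 on the F strand. In 2 of the 525 all probes of both strands were detected, and in 16 none was.

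The brightest interval probes hardly changed between conditions after normalization. Quantile normalization gives the top ranks of each array the same values, which can limit the differences seen there. The highest mean signal was at chr11:22681800-22707775 on the R strand, with 17.94 in None, 17.96 with AR7 and 17.98 with BMS614. At chr7:108209996-108216032 on the R strand the signals were 17.88, 17.95 and 17.90. These 3 arrays lay within 0.07 of each other. At chr17:17481706-17482457 on the R strand 2 of the 3 probes were among the 10 brightest, at 17.56, 17.55 and 17.56 for the brighter one. The 10 brightest interval probes differed from None by -0.04 to 0.14 with AR7 and by -0.26 to 0.04 with BMS614. The lowest of these values was at chr17:39982023-39983277 on the F strand, whose brightest probe read 17.43 in None, 17.42 with AR7 and 17.17 with BMS614. Its other 2 probes differed by -0.19 and -0.21 with BMS614 and by 0.09 and 0.07 with AR7, so all 3 were lower with BMS614 and level with AR7.

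With AR7, 220 of 7657 interval probes with a value (2.87%) differed at least 2-fold from None, where 1.62% of all probes did so. Of these, 84 were higher (1.10%, against 0.597% of all probes) and 136 lower (1.78%, against 1.02%). Among NM_ probes 179 of 18632 (0.961%) differed as much. With BMS614, 238 of 7663 interval probes (3.11%) differed at least 2-fold, against 1.82% of all probes and 1.07% of NM_ probes. Of these, 93 were higher (1.21%, against 0.734% of all probes) and 145 lower (1.89%, against 1.09%). Between AR7 and BMS614, 243 of 8566 (2.84%) differed, against 1.66% of all probes and 1.03% of NM_ probes, with 126 higher with AR7 (1.47%, against 0.829%) and 117 lower (1.37%, against 0.826%). The comparisons with None share that array.

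Most interval probes that differed were dim. Of the 220 probes that differed with AR7, 217 had a mean log2 signal under 8 and 203 under 6, and for BMS614 the numbers were 237 and 215 of 238. Moreover, 126 of the 220 and 129 of the 238 were bounds, that is, the probe was well above background on only 1 of the 2 arrays, and the dim side was set to the higher of its own signal and the lowest signal so marked on that array. This lowest signal was 4.46 for None, 3.44 for AR7 and 3.65 for BMS614, which allows larger bounds for falls than for rises. Bounds made up 85 of the 136 falls and 41 of the 84 rises with AR7, and 84 of the 145 falls and 45 of the 93 rises with BMS614. Other settings of background and scaling changed the balance, some of them reversing it. With the scanner software's own background-subtracted signal, 87 rises stood against 29 falls with AR7 and 91 against 49 with BMS614. With scaling on spike-in controls the split was 193 to 85 and 531 to 69. With the same background correction as above and scaling on the 75th percentile, falls stayed ahead with AR7 and BMS614 stood at 140 rises to 124 falls. No direction can therefore be given for the interval probes as a class.

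Among the 6446 interval probes detected on all 3 arrays, 42 were at least 2-fold higher and 44 at least 2-fold lower with AR7 (1.33%, against 0.64% of all probes and 0.336% of NM_ probes). With BMS614 48 were higher and 53 lower (1.57%, against 0.759% and 0.370%). Between AR7 and BMS614 43 were higher with AR7 and 22 lower (1.01%, against 0.469% and 0.234%). Under a signal of 6 the 2-fold share was 3.46% of interval probes and 2.41% of NM_ probes with AR7, and 3.91% and 2.52% with BMS614. From 6 to 7 it was 0.964% and 0.359% with AR7 and 1.63% and 0.837% with BMS614. In both bins the share was thus higher among interval probes at like signal too. From 7 to 8 the order was the other way, at 0.0967% (1 probe) and 0.400% (7 probes) with AR7. With BMS614 it was 0% and 0.114% (2 probes) there. The median difference was 0.01 with AR7 and 0.00 with BMS614, beside -0.005 and -0.002 over all probes. The interval probes as a whole were thus centred where the rest of the array was.

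At matched signal the distance from the NM_ probes was small with AR7 and larger with BMS614. From 9 to 10 on the log2 scale the median absolute difference between AR7 and None was 0.080 for interval probes and 0.078 for NM_ probes, where the spot SD was 0.070. From 10 to 12 it was 0.080 against 0.065, and at 12 and over 0.063 against 0.052. Between BMS614 and None the medians were 0.11 and 0.096 from 9 to 10, 0.106 and 0.076 from 10 to 12, and 0.091 and 0.060 at 12 and over, where the spot SD was 0.049. Below 6, a range that held 1995 of the 6446 detected interval probes (30.9%), the order was not the same for the compounds: 0.295 and 0.279 with AR7, 0.283 and 0.296 with BMS614.

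**Figure D3:**
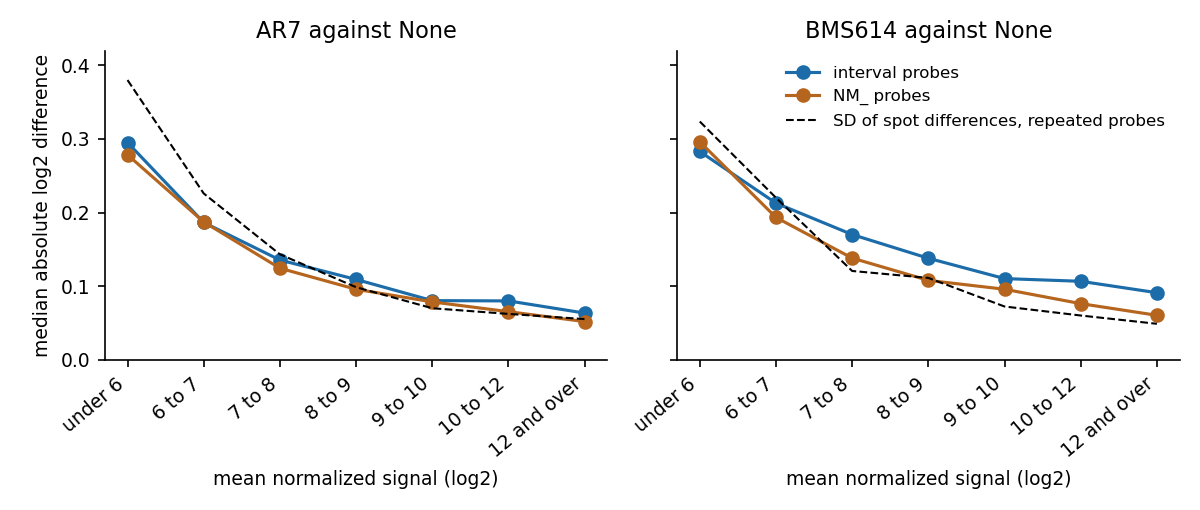
Median absolute log2 difference from None by bin of mean log2 signal, for AR7 (left) and BMS614 (right), over probes detected on all 3 arrays. The dashed line is the SD of the difference between spots of probes printed 10 times; at a signal of 12 and over the interval probes lie at 0.063 with AR7 and 0.091 with BMS614, against 0.052 and 0.060 for NM_ probes.

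In the range where spot error is small, changes of at least 1.5-fold were taken as a second view, a combination of settings chosen after the values were seen. Of the 2069 interval probes that reached a mean signal of 8, 14 were higher and 6 lower with AR7 (0.967%, against 0.249% of all such probes and 0.106% of NM_ probes). With BMS614 17 were higher and 31 lower (2.32%, against 0.578% and 0.171%). Between AR7 and BMS614 19 were higher with AR7 and 3 lower (1.06%, against 0.521% and 0.326%). The NR_ and XR_ probes of the same signal (n = 307) differed from None in 0.326% with AR7 and in 1.95% with BMS614. Their BMS614 share was nearer to that of the interval probes than to that of the NM_ probes. It rests on few probes, 1 higher and 5 lower. By signal the share for BMS614 was 3.01% of interval probes and 0.436% of NM_ probes from 8 to 9, 2.62% and 0.0995% from 9 to 10, 1.51% and 0.147% from 10 to 12, and 1.60% and 0.116% at 12 and over. It was thus higher among interval probes in each of these bins. The 31 probes that were lower with BMS614 lay in 26 intervals, and the 17 that were higher in 14.

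**Figure D4:**
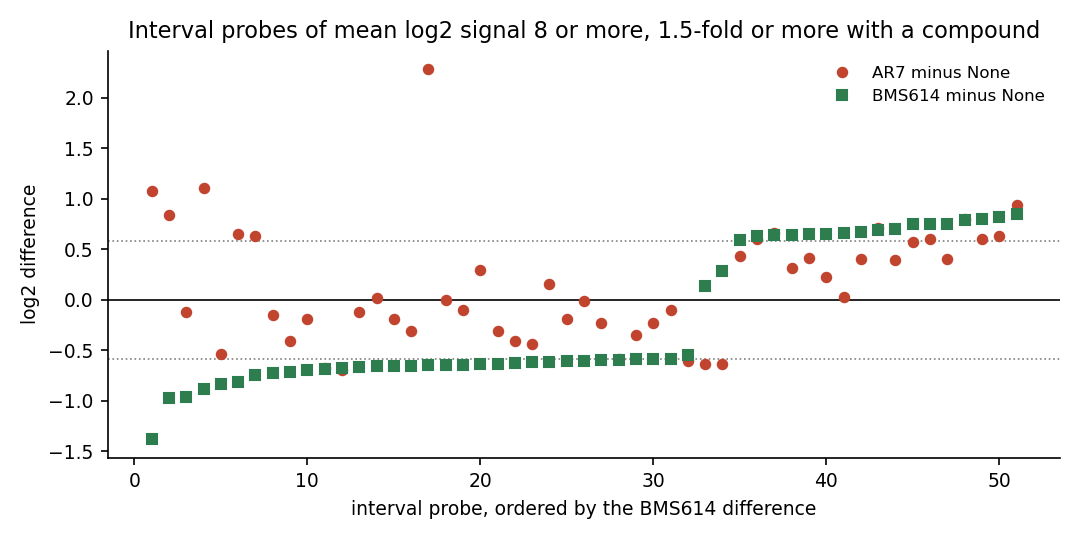
Log2 difference from None with AR7 (circles) and BMS614 (squares) for each interval probe of mean log2 signal 8 or more that differed at least 1.5-fold (dotted lines) with either compound, ordered by the BMS614 value. Each point is 1 probe on 1 pair of arrays, and both series share the None array; the largest value is 2.28 with AR7, in a probe at -0.65 with BMS614.

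Several bright probes read higher with AR7 and lower with BMS614 than in None. The largest separation was on the R strand of chr9:20313342-20323517, where 1 probe had 7.61 in None, 9.89 with AR7 and 6.96 with BMS614. This is 4.86-fold higher with AR7 than in None, a log2 difference of 2.28, and -0.65 with BMS614. The other 3 detected probes of that strand differed from None by 0.12 to 0.25 with AR7 and by 0.01 to 0.85 with BMS614, so the rise was seen by a single probe of 4. At chrX:18744367-18853992 on the R strand the signals were 10.73, 11.81 and 9.34 (1.08 and -1.38), and the other 3 probes of the strand were not detected on all 3 arrays. On the F strand of chr13:48620882-48643532 they were 9.14, 10.25 and 8.26 (1.11 and -0.88), where 6 other detected probes lay between -0.19 and 0.42 with AR7 and between -0.34 and 0.20 with BMS614. At chr11:95573399-95587949 on the F strand, which had no other probe, they were 13.09, 13.93 and 12.11 (0.84 and -0.98). At these signals the spot SD was between 0.049 and 0.11, far below the differences, but where other probes of the strand were detected, none of them rose as much with AR7.

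Probes of one interval agreed on a rise with AR7 on the F strand of chr9:78107225-78118850. One probe read 7.25 in None, 8.74 with AR7 and 7.12 with BMS614, and another 6.01, 7.43 and 5.94. Their differences were 1.49 and 1.42 with AR7 and -0.12 and -0.07 with BMS614. The third detected probe of the strand read 5.47, 5.58 and 5.47, a difference of 0.11 with AR7. The rise was thus shared by 2 of 3 detected probes and neither of these probes rose with BMS614.

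Among the named probes detected on all 3 arrays, the largest falls came from probes that read highest on the None array. On the F strand of chr2:174088550-174109425, 1 probe read 7.93 in None, 5.27 with AR7 and 5.00 with BMS614, differences of -2.66 and -2.93. The other 5 detected probes of the strand lay between -0.59 and 0.20 with AR7 and between -0.43 and 0.29 with BMS614. A probe on the R strand of chr5:147538052-147546377 read 7.55, 5.44 and 5.34, and the other 3 detected probes lay between -0.37 and 0.28 with AR7 and between -0.02 and 0.04 with BMS614. A probe on the F strand of chr5:137392195-137426421 read 6.13, 4.48 and 4.48, and 7 others lay between -0.33 and 0.06 with AR7 and between -0.11 and 0.09 with BMS614. In each of these intervals the other detected probes of the strand differed from None less than the one named. On the R strand of chr1:141070245-141076841 (-1.96 with AR7) no other probe was detected on all 3 arrays. The same held for the F strand of chr15:84737071-84753414 (-1.87 with BMS614). Among the bounds against None the largest was a fall by at least 3.20 with AR7, on the R strand of chr17:3004525-3086000, where a probe read 7.21 in None, 4.02 with AR7 and 4.47 with BMS614, and 2 other detected probes of the strand differed by 0.02 and 0.72 with AR7. On the R strand of chrX:93157194-93160542 the falls were at least 3.18 with AR7 and at least 3.05 with BMS614, and the 1 other detected probe differed by -0.06 and 0.02.

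The largest rise with BMS614 among probes detected on all 3 arrays was on the F strand of chr12:110738120-110769295, at 4.90 in None, 5.34 with AR7 and 7.12 with BMS614. None of the 4 other probes of the strand was detected on all 3 arrays. On the R strand of chr6:50339188-50409363 a probe read 4.88, 6.03 and 6.66, a rise of 1.15 with AR7 and 1.79 with BMS614, and 4 other detected probes lay between -0.13 and 1.00 with AR7 and between 0.13 and 1.13 with BMS614. All 5 of these probes were thus above None with BMS614.

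Agreement between probes of the same interval strand was weak across the array. Over the 6280 pairs of detected probes that share an interval and a strand, 54.3% moved the same way with AR7, 57.3% with BMS614 and 55.2% between the compounds. The correlation of their differences was 0.10, 0.18 and 0.10. For 4052 pairs of probes to one NM_ accession the shares were 57.4%, 54.8% and 57.1% (r = 0.12, 0.09 and 0.15). Pairs on opposite strands of one interval (n = 4647) moved the same way in 51.3%, 52.3% and 53.7%. In pairs whose mean log2 signal was 8 or more, those of one interval strand (n = 2351) reached 56.4% with AR7, 63.0% with BMS614 (r = 0.31) and 60.4% between the compounds, beside 58.4%, 55.8% and 57.7% for NM_ pairs (n = 3251). The pairs share arrays and often an interval, so these values are a description without a test. The BMS614 value in bright interval pairs was the highest of them.

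On 879 interval strands at least 3 probes were detected on all 3 arrays, which allows a mean over probes. The median absolute mean difference was 0.092 with AR7 and 0.13 with BMS614, and the median SD between the probes of a strand was 0.20 and 0.21. All probes were above None on 125 of these strands and all below on 96 with AR7 (25.1%), and on 118 and 146 with BMS614 (30.0%). Of 397 NM_ accessions with as many detected probes, all were above None for 61 and all below for 82 with AR7, and for 51 and 69 with BMS614 (30.2%). Interval strands had more detected probes on the whole, and at exactly 3 the shares were 34.7% and 37.8% of 510 strands against 37.2% and 32.1% of 355 accessions. A change of at least 1.5-fold in every detected probe was much rarer. Of 1666 strands with at least 2 detected probes, 11 (0.660%) met this with AR7, 6 higher and 5 lower, and 11 with BMS614, 9 higher and 2 lower. Of 3050 NM_ accessions, which are brighter, 3 (0.0984%) met it with AR7 and 3 with BMS614.

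Among strands with at least 3 detected probes, 3 had all of them at least 1.5-fold higher with BMS614 and 1 had all lower. With AR7 none had all higher and 1 had all lower. The rises described here lay mostly on short intervals. On the F strand of chr17:3346621-3347209 (589 bp) the 3 probes read 6.86, 7.31 and 8.10 in None, 7.31, 8.10 and 8.90 with AR7, and 7.86, 8.24 and 8.89 with BMS614. The mean rise with BMS614 was 0.90 ± 0.10 (SD over 3 probes), and with AR7 the 3 probes rose by 0.45, 0.79 and 0.80. On the R strand of chr5:152006587-152008784 all 3 probes rose with BMS614 by 1.15 ± 0.39 (SD over 3 probes), from 5.92, 5.43 and 6.61 to 6.83, 7.03 and 7.56, and read 6.17, 6.57 and 7.23 with AR7. In both intervals every probe was above None on both treated arrays. On the R strand of chr13:108653722-108654406 the 2 detected probes of 3 rose from 5.55 and 5.84 to 6.59 and 6.94 with AR7 and to 6.66 and 6.74 with BMS614. Both R probes of chrX:11690182-11690581 rose, from 4.99 and 4.75 to 5.72 and 5.78 with AR7 and to 5.84 and 5.76 with BMS614. In chr6:83368261-83407280, on the R strand, the 2 detected probes of 5 rose by 0.63 and 0.71 with AR7 and by 0.62 and 0.68 with BMS614. Probes of this brightness, mostly under 7, have a spot SD of 0.22 to 0.38.

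Falls of at least 1.5-fold in all detected probes were fewer with BMS614, 2 against 9 rises, and nearly as many with AR7, 5 against 6. On the F strand of chr13:37633225-37640309 the 2 detected probes read 5.39 and 5.50 in None, 4.48 and 4.64 with AR7, and 5.41 and 5.65 with BMS614. They fell by 0.91 and 0.86 with AR7 and differed by 0.02 and 0.15 with BMS614, so they were low on the AR7 array alone. In chr2:115900355-115900904, on the F strand, the 2 detected probes fell by 0.75 and 0.85 with BMS614 and differed by -0.48 and -0.16 with AR7. In chr5:15146475-15170100, on the F strand, all 4 probes were lower with either compound. They read 10.14, 9.94, 7.07 and 10.17 in None, 9.53, 9.24, 6.15 and 9.58 with AR7, and 9.59, 9.26, 6.12 and 9.58 with BMS614. The 2 probes of a second interval of that chromosome, chr5:14943275-14944205 on the F strand, read 9.81 and 9.64 in None, 9.12 and 9.15 with AR7, and 9.12 and 9.08 with BMS614. Whether the probes of these intervals can bind the same RNA was not tested, because the files hold no probe sequences.

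Overlapping intervals allowed a wider view of 2 stretches, both picked out because they held at least 3 bright probes that differed at least 1.5-fold, so their values are a description of what picked them. On chromosome 16, 3 overlapping intervals spanned chr16:43623175-43642715, with 16 probes on the F strand and 10 on the R strand. All 15 F probes detected on all 3 arrays were higher than None with both compounds, by 0.11 to 0.66 with AR7 (median 0.47) and by 0.22 to 0.82 with BMS614 (median 0.56). In the short interval at its edge, chr16:43623175-43624069, the 3 probes read 9.46, 9.90 and 8.65 in None, 10.03, 10.53 and 9.04 with AR7, and 10.20, 10.72 and 9.34 with BMS614. The 5 detected R probes were spread from -0.65 to 0.69 with AR7 and from -0.71 to 0.59 with BMS614. Their medians were 0.21 and 0.05, with 1 of the 5 below None with AR7 and 2 with BMS614.

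On chromosome 19, 6 overlapping intervals spanned chr19:5771425-5848475, with 11 probes on the R strand and 16 on the F strand. All 10 detected R probes, in 4 intervals, were lower with BMS614 than in None, by 0.40 to 0.72, with a median difference of -0.54. With AR7 the same probes lay between -0.41 and 0.22, with a median of -0.10. In chr19:5801802-5802597 the 3 R probes read 14.20, 14.55 and 15.62 in None, 14.10, 14.36 and 15.52 with AR7, and 13.62, 13.94 and 15.08 with BMS614. In chr19:5798135-5800557 the 3 R probes read 11.14, 11.48 and 12.12 in None, 11.04, 11.38 and 12.05 with AR7, and 10.60, 10.84 and 11.59 with BMS614. In chr19:5834117-5835940 the 3 R probes read 8.45, 8.07 and 7.24 in None, 8.45, 8.29 and 7.31 with AR7, and 7.99, 7.66 and 6.70 with BMS614. The BMS614 array was the lowest of the 3 for every one of these 9 probes. The 15 detected F probes ranged from -1.44 to 0.37 with BMS614, and 10 of them were below None. Fewer cells that make an RNA and less of it per cell cannot be told apart in these bulk samples.

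**Figure D5:**
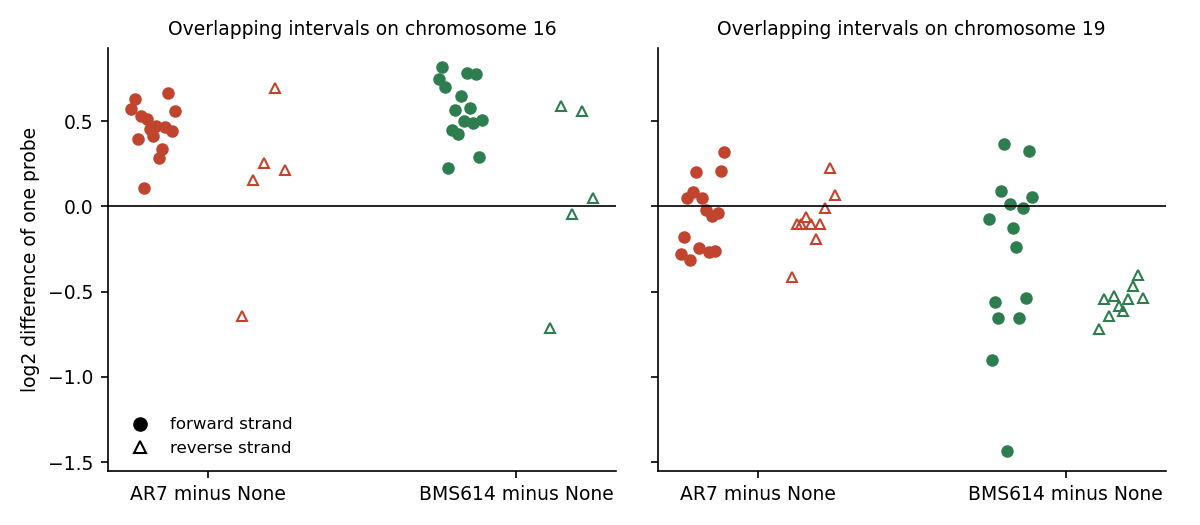
Log2 difference from None of each detected probe in the overlapping intervals on chromosome 16 (left) and chromosome 19 (right), with AR7 and BMS614; filled circles are F probes and open triangles R probes. On chromosome 16 all 15 F probes lie above 0 with both compounds, and on chromosome 19 all 10 R probes lie between -0.72 and -0.40 with BMS614.

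As a comparison with named long noncoding RNAs, 28 of a list of 50 genes had a probe through their RefSeq accession, and 22 of these were detected on all 3 arrays. Fendrr, Firre, Jpx, Meg3, Peg13 and Xist, the last being the RNA that silences an X chromosome in female cells, stayed dim on all 3 arrays. The median difference of the 22 was -0.10 with AR7 and -0.10 with BMS614, beside -0.005 and -0.002 over all probes. With AR7 none differed at least 2-fold, the range being -0.80 to 0.98, and with BMS614 1 was at least 2-fold lower and none higher.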

How the data were processed

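The authors deposited, for each array, the spot intensity given by Agilent Feature Extraction 10.7.3.1 (protocol GE1_107_Sep09), before normalization between arrays, and 1 table of processed intensity values. That table is on a linear scale with medians of 65.0 (None), 70.7 (AR7) and 67.5 (BMS614), and its centring is not given in the sources used here. The submitters' processing notes name oligo and RMA. Here the RMA convolution background was applied to the median pixel intensity of each spot, followed by quantile normalization over 3 arrays and log2. The spots of a probe were averaged and outlier spots were left out. R 4.3.3, limma 3.58.1, Python 3.11.15, numpy 2.4.6, pandas 2.3.3 and scipy 1.17.1 were used. Simulated data with known changes were used to check the counting.

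Groups came from the treatment in the labels. For each pair of arrays a probe had to be detected on 1 or both, and bounds under 1-fold were not counted. No test was made, and the number of arrays limits the precision. The members and lists were chosen with earlier results of these data known. The rule for naming took, off chromosome 18, the 8 largest rises and falls with each compound, the 3 largest each way between compounds, the 4 largest each way at a mean log2 signal of at least 8, the 10 brightest, up to 8 strands per compound with all detected probes changed at least 1.5-fold, the 3 largest bounds each way, and probes at least 2-fold apart from None in opposite directions. Not all of these are described. The overlapping stretches, and the intervals detected on a single strand, were chosen after their values were seen. RefSeq accessions were matched to a GRCm38.p6 gene table, which named 27235 probes, and no coordinates were taken from it. The alternatives were the scanner software's processed signal or the RMA background scaled to the 75th percentile, normexp with an offset of 50, spike-in scaling, the deposited table with a floor of 16, other folds (1.5 and 3), other filters and the weaker detection flag.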

Additional observations from a re-analysis of the deposited data

Results flagged for a closer look

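The probe on the R strand of chrX:18744367-18853992 was the single interval probe that differed at least 2-fold from None in opposite directions with the compounds, by 1.08 with AR7 and by -1.38 with BMS614 on the log2 scale. Both values use the same None array, and with 1 array per condition the difference between them was not tested.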

How the results depend on the processing

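No paired analysis was possible because there is only 1 array for a condition and no replicate number to pair. Counts of interval probes that differed at least 2-fold depended on the processing. Given for AR7 against None, BMS614 against None and AR7 against BMS614 in that order, they were 116, 140 and 92 with the processed signal scaled to the 75th percentile, 13, 5 and 11 with normexp, and 29, 38 and 39 with the deposited table. Spike-in scaling, which moved the median of all probes by 0.20, 0.34 and -0.14, gave 600 for BMS614. They were 866, 972 and 1045 at 1.5-fold and 60, 54 and 53 at 3-fold. Detection on all 3 arrays left 86, 101 and 65, a mean log2 signal of at least 8 left 3, 1 and 6, and without a filter there were 510 and 513 for the comparisons with None. The share of higher probes, 38.2%, 39.1% and 51.9% in the values reported, was 75%, 65.0% and 62.0% with the processed signal, 69.4%, 88.5% and 24.0% with spike-in scaling, 58.6% (AR7 against None) and 74.4% (AR7 against BMS614) with the deposited table, 0% (BMS614 against None) and 100% (AR7 against BMS614) with normexp, and 53.0% (BMS614 against None) with the RMA background scaled to the 75th percentile. Normexp pulls dim values together by its offset, and the cause of the other shifts was not tested.

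With the weaker flag 71.9% (None), 80.1% (AR7) and 80.8% (BMS614) of interval probes were above background, and of intervals with probes on both strands 672 had both detected and 69 neither. Pairs of one strand moved the same way in 59.2%, 59.8% and 56.9% with the processed signal, 57.5% (AR7 against None) and 57.6% (AR7 against BMS614) with the deposited table, 58.8% (BMS614 against None) with the RMA background scaled to the 75th percentile, and 56.4%, 63.0% and 60.4% at a mean log2 signal of at least 8. The counts of bright probes at 1.5-fold, whose alternatives were chosen after seeing the data, were 8, 23 and 14 with normexp, and within 1.5 times the reported counts under the other scalings. In each scaling the share for BMS614 against None was higher in interval probes, from 1.11% to 2.37%, than in NM_ probes, from 0.106% to 0.171%. Of 97 differences of named probes under 5 scalings, 485 values in all, none changed direction, and 191 moved by more than the spot SD. These probes were named for the size of their difference, so a change of direction was unlikely from the start. All 97 stayed within the spot SD under spike-in scaling, which moved the median of all probes. A shift common to all probes is thus not in this count. Dim signal limits most of the interval probes, since 46.3% were not detected on any array.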
